A study of Danio rerio with 4 samples.

Results

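The genes *wt1b* (ENSDARG00000007990), *aldh1a2* (ENSDARG00000053493, listed as ALDH1A2), *adh8a* (ENSDARG00000091211) and *cldc1* (ENSDARG00000056379, also known as *si:ch73-86n18.1*) were followed through the epicardial-derived cells of the injured zebrafish heart. They are 4 of the 20905 genes with a count, and were picked by gene ID because the study links them to the epicardium that covers the injury. In SORT-seq, a single sorted cell goes into each well of a plate, and each transcript is tagged near its 3′ end for its well and its molecule, so that copies made in amplification are counted once. The experiment holds 4 plates of 384 wells, 2 with *prrx1b*-/- cells and 2 with cells of wild-type siblings. All came from cryo-injured ventricles of adult fish at 7 dpi (days post-injury).

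The mutants are homozygous for a nonsense mutation in *prrx1b*, a homeobox transcription factor gene. All cells were sorted for mCherry. The labels name the line as Tg(tcf21:mCherry), whereas the study's methods describe fish with Tg(tcf21:CreERT2) and a floxed EGFP-to-mCherry reporter under *ubi* control that were recombined as embryos, in which cells that had used the *tcf21* promoter, and their descendants, keep mCherry. Fish of both sexes, about 4 to 18 months old, and 20 hearts per genotype are named, with no separate hearts for each plate. Tests between genotypes therefore measure the spread between plates, and a difference can also be one between the pools of hearts or their sorting. No uninjured heart and no position in the heart was analysed here, so whether the 4 genes mark the injury side cannot be read from these values.

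The epicardium is the mesothelial sheet around the heart, and after injury its cells multiply, cover the wound and give rise to fibroblasts and mural cells. Retinoic acid is made from retinol by stepwise oxidation, by retinol dehydrogenases such as RDH10 and then by retinaldehyde dehydrogenases such as Aldh1a2 (Raldh2), and enzymes of the CYP26 family break it down. *wt1b* encodes a zinc finger transcription factor of the Wilms tumour family, and *wt1b* and *aldh1a2* are widely used as signs of an activated epicardium. *adh8a* belongs to the alcohol dehydrogenase family. No function is given here for *cldc1*.

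Wells with at least 1000 transcripts were taken as cells. These were 1453 of 1536 wells, 366 on each *prrx1b*-/- plate, and 357 and 364 on the wild-type plates. The plates held 2628354 to 3773059 transcripts. The *prrx1b*-/- plates were the deeper ones, with medians of 7654 and 7543 transcripts per cell, against 6055 and 5065 on the wild-type plates. Because a gene is found more often in a deeper cell, shares of cells are also given after thinning, which is the share expected if 1000 transcripts were drawn from every cell. Of the epicardial genes *tcf21* and *tbx18*, transcripts were found in 39.5% and 36.7% of cells. Summed fibroblast genes were high on all plates (33960 to 48470 CPM), pericyte and smooth muscle genes came to 1605 to 2178 CPM, and the matched genes of the other cell types of the heart were low. Leukocyte genes came to 23.6 and 26.6 CPM on the *prrx1b*-/- plates and 178 and 92.6 CPM on the wild-type plates. Cardiomyocyte genes came to 2.89 to 131 CPM and endothelial genes to 5.33 to 9.95 CPM. Only 1 erythrocyte gene was matched, at no more than 0.381 CPM, so this class was hardly covered. The globin gene HBE1, not among the matched genes, was at 206 CPM in a cluster of 132 cells and at 5.08 CPM in the other cells. CPM are transcripts per 1000000 transcripts of the cells of a plate. The 95% intervals are exact (Clopper-Pearson) and hold for counting error alone.

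Over all cells pooled, *wt1b*, *aldh1a2* and *cldc1* were found in about the same share of cells, and *adh8a* in fewer. A transcript of *wt1b* was found in 827 of 1453 cells (56.9%, 95% interval 54.3 to 59.5%) and a transcript of *aldh1a2* in 802 (55.2%, 52.6 to 57.8%). The gene *cldc1* was found in 801 cells (55.1%, 52.5 to 57.7%) and *adh8a* in 663 (45.6%, 43.05 to 48.2%). After thinning to 1000 transcripts, the shares were 18.1% for *wt1b*, 26.8% for *aldh1a2*, 22.4% for *adh8a* and 24.9% for *cldc1*. In the pooled cells, the order of the genes thus depended on depth. There, *wt1b* was the most often found gene in whole cells and the least often found in thinned cells. The order also differed between plates. On wild-type plate 1, *adh8a* and *cldc1* were each found in 177 of 357 cells and *wt1b* in 178. On wild-type plate 2, *adh8a* was found in 161 cells and *cldc1* in 180. After thinning, *adh8a* was above *cldc1* on both wild-type plates (23.5% and 22.8% against 20.2% and 20.8%). It was below *cldc1* on both *prrx1b*-/- plates (21% and 22.3% against 26.03% and 32.3%).

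The genes differed in how evenly their transcripts were spread. The 146 cells with the most *wt1b* (10% of cells) held 48.3% of its transcripts, and no cell had more than 29.1. For *aldh1a2* the same share was 56.5%, with up to 105 transcripts in a cell. It was 61.8% for *adh8a*, with up to 72.6 transcripts, and 64.5% for *cldc1*, with up to 129. *wt1b* was thus found at a low level in many cells, while *adh8a* and *cldc1* had a larger part of their transcripts in few cells. As a measure of stray transcripts, 32 wells were taken (8 on each plate, below 1000 transcripts on all 4 plates, median 160.5 transcripts). *wt1b* was found in 1 of them, *aldh1a2* in 3, *adh8a* in 2 and *cldc1* in 2, at no more than 2 transcripts per well. These wells are far shallower than the cells, so their shares are not on the same footing.

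*wt1b* was at 281 and 284 CPM in the *prrx1b*-/- plates, against 262 and 250 CPM in the wild-type plates. Both mutant plates lay above both wild-type plates, an order that 22.1% of all genes tested had. The difference was small, a log2 fold change of 0.16 (SE 0.13, edgeR quasi-likelihood test, adjusted p = 0.646). After thinning, *wt1b* was found in 19.95% and 18.9% of *prrx1b*-/- cells and in 15.8% and 17.7% of wild-type cells, a difference of 2.68 percentage points. With 2 plates a genotype, an exact two-sided permutation test cannot give less than p = 0.33, which was its value here. Within cells that had the gene, its level was 362 ± 12.4 CPM in *prrx1b*-/- and 356 ± 25.2 CPM in wild type (SD, n = 2 plates each).

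*aldh1a2*, the retinoic acid synthesis gene, was at 631 and 738 CPM in the *prrx1b*-/- plates, against 578 and 576 CPM in the wild-type plates. Both mutant plates lay above both wild-type plates, as for 22.1% of all genes tested, and the log2 fold change was 0.26 (SE 0.14, edgeR, adjusted p = 0.433). It was found in 26.6% and 28.8% of thinned *prrx1b*-/- cells, against 26.3% and 25.4% of thinned wild-type cells. This order did not hold at more depth: in cells with at least 3000 transcripts, thinned to 3000, the mean share was 47.4% in *prrx1b*-/- and 49.9% in wild type.

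*adh8a* was at 382 and 388 CPM in the *prrx1b*-/- plates, against 426 and 349 CPM in the wild-type plates. The wild-type plates enclosed the mutant plates, with a log2 fold change of 0.01 (SE 0.14, edgeR, adjusted p = 0.990). It was found in 21% and 22.3% of thinned *prrx1b*-/- cells and 23.5% and 22.8% of thinned wild-type cells. The plate totals thus gave no call for *adh8a*, and the difference in its share of cells was -1.50 percentage points (exact permutation p = 0.33, the smallest possible).

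*cldc1* was the gene of the group that rose in the mutants. It was at 602 and 764 CPM in the *prrx1b*-/- plates, against 402 and 384 CPM in the wild-type plates. Both mutant plates were higher, and the log2 fold change was 0.81 (SE 0.15, edgeR, adjusted p = 0.0314). The call was lost without *prrx1b*-/- plate 1 (0.98, adjusted p = 0.0672 by edgeR) and without *prrx1b*-/- plate 2 (0.65, adjusted p = 0.392 by edgeR), and held without either wild-type plate. Over all 11191 genes tested, 40 rose and 69 fell in *prrx1b*-/- cells, which is 0.357% and 0.617%, or 0.974% together, so that 1 gene of 4 stands beside this background. Of the 4 genes, 3 had both mutant plates above both wild-type plates. Of all genes tested, 22.1% had this order and 22.9% the opposite one.

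Both the share of *cldc1* cells and the level within them were higher in the mutants. After thinning, *cldc1* was found in 26.03% and 32.3% of *prrx1b*-/- cells and in 20.2% and 20.8% of wild-type cells, a difference of 8.65 percentage points (exact permutation p = 0.33, the smallest possible). In cells that had the gene, its level was 950 ± 111 CPM in *prrx1b*-/- and 623 ± 9.30 CPM in wild type (SD, n = 2 plates each). The transcripts were less concentrated in few cells in the mutants: the 10% of cells with most *cldc1* held 60.9% and 57.05% of them on the *prrx1b*-/- plates, against 67.9% and 67.02% on the wild-type plates. These shares were not thinned, and the mutant plates were deeper. The mean share was also lower in the mutants for *wt1b* (45.4% against 51.3%), and nearly equal for *aldh1a2* (55.6% against 55.7%) and *adh8a* (61.6% against 61.3%). Leukocyte genes and ribosomal protein genes were lower on the mutant plates (ribosomal 9.48% and 9.51% of transcripts in *prrx1b*-/-, 11.7% and 13.2% in wild type), and the part of leukocytes in the result was not tested. *cldc1* kept its call in edgeR without ribosomal and mitochondrial genes (log2 fold change 0.82, adjusted p = 0.0319), in cells with at least 2000 transcripts (0.81, adjusted p = 0.0438) and with cells thinned to 1000 (0.96, adjusted p = 0.00543).

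**Figure D1:**
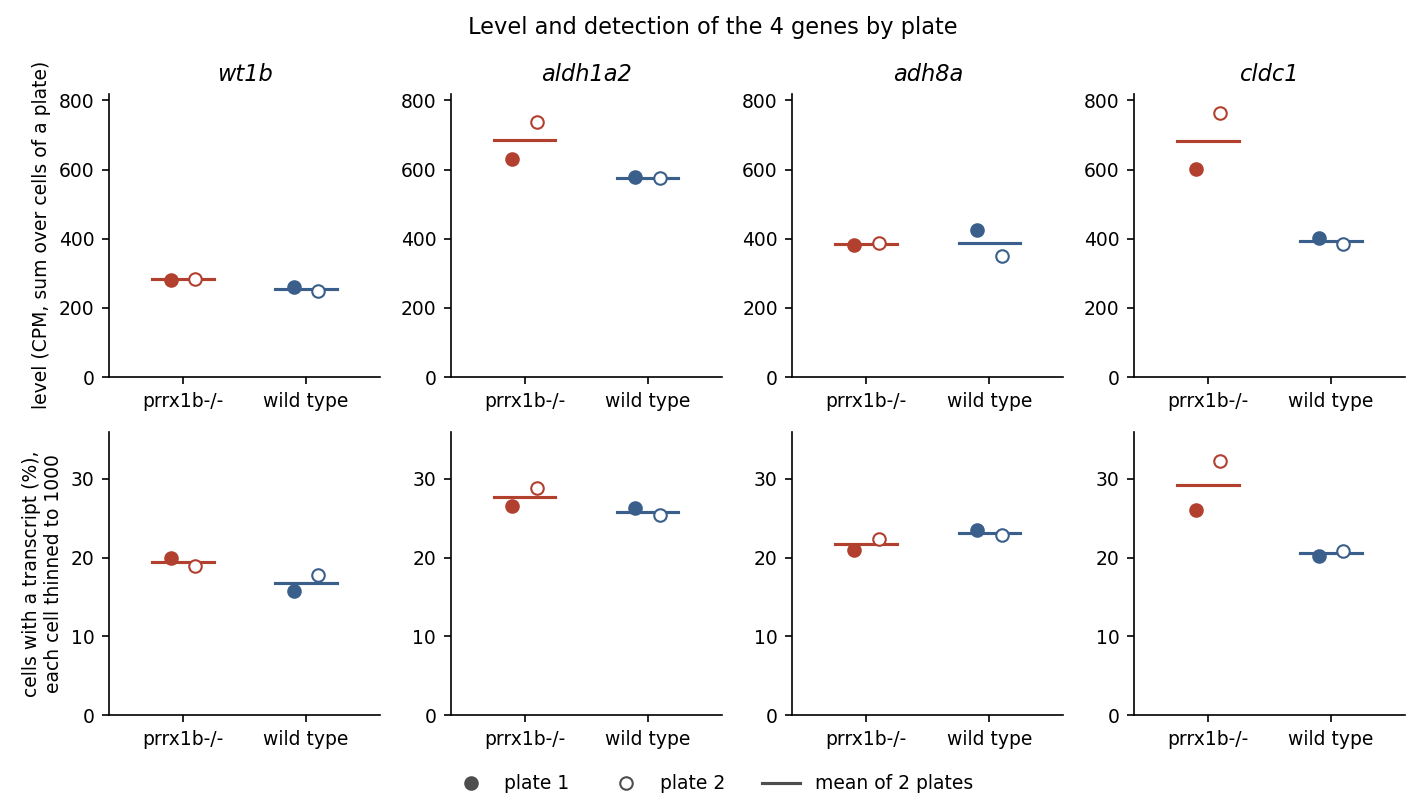
Level in CPM (top row) and share of cells with a transcript in percent, each cell thinned to 1000 transcripts (bottom row), for each gene and plate, with *prrx1b*-/- plates in red on the left and wild-type plates in blue on the right; lines are means of 2 plates. For *cldc1* both *prrx1b*-/- plates (602 and 764 CPM) lie well above both wild-type plates (402 and 384 CPM), whereas for *adh8a* the wild-type plates enclose the mutant plates.

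The 4 genes were often found in the same cells, and this too moved with depth. Of the 1453 cells, 304 had a transcript of all 4 genes (20.9%, 95% interval 18.9 to 23.1%) and 219 had none (15.1%, 13.3 to 17.02%). The cells with all 4 had a median of 10669 transcripts and those with none 3314.5. After thinning to 1000 transcripts, 1.3% of cells would keep all 4 and 42.6% none. By plate, all 4 genes were found in 85 and 86 *prrx1b*-/- cells and in 72 and 61 wild-type cells.

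Over the 6 pairs and all cells, those of *wt1b* with *aldh1a2* and of *adh8a* with *cldc1* had the highest odds ratios of being found together. *wt1b* and *aldh1a2* shared 600 cells, and *aldh1a2* was found in 72.6% of cells with *wt1b*, against 32.3% of cells without it. This is an odds ratio of 5.55 (4.53 to 6.22 by plate), and of 2.00 after thinning (1.62 to 2.30). *adh8a* and *cldc1* shared 495 cells, and *cldc1* was found in 74.7% of cells with *adh8a*, against 38.7% of cells without it. This is an odds ratio of 4.66 (3.05 to 7.39 by plate), and of 3.78 after thinning (3.33 to 5.14). Which pair held up better depended on how depth was handled. In cells with at least 5000 transcripts the odds ratio was 4.80 for *wt1b* and *aldh1a2* and 3.26 for *adh8a* and *cldc1*, the reverse of their order after thinning.

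Of the other 4 pairs, that of *aldh1a2* and *cldc1* was above *wt1b* and *aldh1a2* once cells were thinned. After thinning, the odds ratio was 1.33 for *wt1b* and *adh8a*, 1.46 for *aldh1a2* and *adh8a*, 1.66 for *wt1b* and *cldc1*, and 2.16 for *aldh1a2* and *cldc1*. *adh8a* was at 356 CPM in the 600 cells with both *wt1b* and *aldh1a2*, against 396 CPM in the 424 cells with neither, and the plates overlapped (306 to 416 against 337 to 432 CPM). *cldc1* was at 697 CPM in the cells with both and at 266 CPM in those with neither, with the same order on each plate (761, 964, 497 and 442 CPM against 323, 333, 208 and 198 CPM). The cells with both were deeper, with a median of 11671 transcripts against 3729 in those with neither, where a gene is more easily missed. The level of *cldc1* was thus higher in these cells on every plate, and that of *adh8a* was not. The share of thinned cells with *adh8a* was nevertheless higher on every plate, at 26.2% of the cells with both genes and 17.02% of those with neither.

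**Figure D2:**
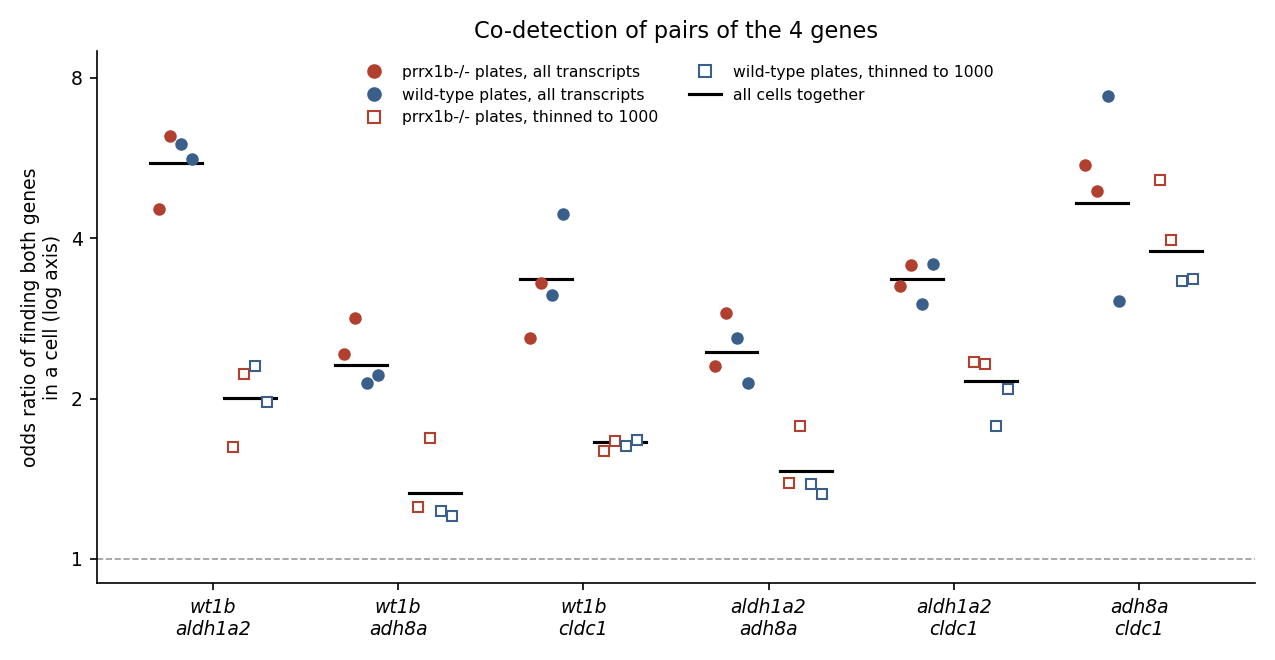
Odds ratio, on a log axis, of finding both genes of a pair in a cell, for the 6 pairs; circles use all transcripts and open squares each cell thinned to 1000, with *prrx1b*-/- plates in red, wild-type plates in blue and black lines for all 1453 cells. Every point lies above 1, and after thinning the pair of *adh8a* and *cldc1* is highest (3.78) and that of *wt1b* and *adh8a* lowest (1.33).

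Cells with and without transcripts of 2 general epicardial genes differed little in the pooled levels of the 4 genes. In the 282 cells with transcripts of both *tcf21* and *tbx18*, transcription factor genes of the epicardium, *wt1b* was at 244 CPM, against 289 CPM in the 628 cells with neither. *aldh1a2* was at 663 against 577 CPM, *adh8a* at 416 against 352 CPM and *cldc1* at 532 against 550 CPM in the same cells. These pooled differences were smaller than those between plates of the same kind of cell, where *adh8a* ran from 260 to 626 CPM in the cells with both. Within plates, *wt1b* was lower in the cells with both on the wild-type plates (180 against 290 CPM and 208 against 245 CPM). The *prrx1b*-/- plates differed in direction (272 against 353 CPM and 293 against 260 CPM). The cells with both were deeper, with a median of 7641 transcripts against 5704. Over cells, the correlations of *tcf21*, *tbx18*, HSPH1 and RTCA with the 4 genes ran from -0.12 to 0.04.

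Correlations over cells were computed within each plate on Pearson residuals, which allow for the depth of a cell, and averaged over the 4 plates. Cells of a plate share a library, so these values are descriptions. Among 5783 genes found in at least 10% of cells, *adh8a* and *cldc1* had a mean r of 0.40 (0.38 to 0.41 by plate) and *wt1b* and *aldh1a2* one of 0.33 (0.23 to 0.41). Next came *aldh1a2* and *cldc1* with 0.23 and *wt1b* and *cldc1* with 0.18. For *wt1b* and *adh8a*, and for *aldh1a2* and *adh8a*, r was 0.05 each, and 0.15 each on log2 values scaled to 10000 transcripts per cell. The order of the pairs was that of the thinned co-detection only in part: *adh8a* with *cldc1* led both, and the pairs of *adh8a* with *wt1b* and *aldh1a2* closed both.

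The gene most like *wt1b* was RDH10 (ENSDARG00000012369), which encodes the enzyme of the first step from retinol to retinoic acid, with a mean r of 0.37 (0.23 to 0.48 by plate). *aldh1a2*, the gene of the next step, came 2nd of 5783 genes. They were followed by EHD1, a gene of endocytic recycling (0.28), YAF2 (0.28) and the keratin gene *krt15* (0.27). FOS, DCN (decorin) and *mfap5* had the lowest values, at -0.25, -0.22 and -0.22. Of the 10 retinoic acid pathway genes found in enough cells, *aldh1a2* aside, 3 had an r over 0.1 with *wt1b*, the median was -0.02, and the second gene listed as RDH10 (ENSDARG00000058730) was at 0.003. The other 2 of the 3 were near the limit, STRA6 and TGM2 at 0.11 each. Over all 5783 genes, 315 were over 0.1 with *wt1b*.

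For *aldh1a2*, the highest values were those of *podxl* (podocalyxin, a sialoglycoprotein of the apical membrane) at 0.53, MYRF at 0.52, GSTM3 at 0.52, *crb2b* (a Crumbs polarity protein) at 0.51 and *krt15* at 0.47. *wt1b* came 26th for it. HTRA1, THBS3 (a thrombospondin) and COL4A1 (a basement membrane collagen) were lowest, at -0.33, -0.31 and -0.28. All genes named here for their correlation had the same sign on each of the 4 plates, as the rule for naming them required.

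The genes most like *adh8a* were others: *c4b* (complement component 4) at 0.53, HSP90AB1 (a chaperone) at 0.48, ALDH9A1 (an aldehyde dehydrogenase) at 0.44, *c3a.1* (complement component 3) at 0.43 and RPL5 (a ribosomal protein) at 0.43. The values of *podxl* and *crb2b* with *adh8a* were 0.02 and 0.06. COL5A1, FSTL1 and SPARC, matrix and matrix-associated genes of fibroblasts, were lowest at -0.39, -0.37 and -0.36. *cldc1* came 16th.

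The highest values for *cldc1* were those of *c3a.1* (0.46), *gcga* (a glucagon gene, 0.44), *adh8a* (0.40), EFNA1 (an ephrin, 0.39) and *csf1a* (a growth factor for macrophages, 0.37). *gcga*, EFNA1 and *csf1a* also had high values with *aldh1a2*, at 0.33 for *gcga*, 0.36 for EFNA1 and 0.43 for *csf1a*. COL5A1, COL5A2 and SPARC were lowest for *cldc1*, at -0.40, -0.36 and -0.34. Of the 50 genes most like each, *adh8a* and *cldc1* shared 24 (48% of each list), *wt1b* and *aldh1a2* 17 (34%), *aldh1a2* and *cldc1* 9 (18%), *wt1b* and *cldc1* 7 (14%), *wt1b* and *adh8a* 1 (2%), and *aldh1a2* and *adh8a* 0 (0%).

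**Figure D3:**
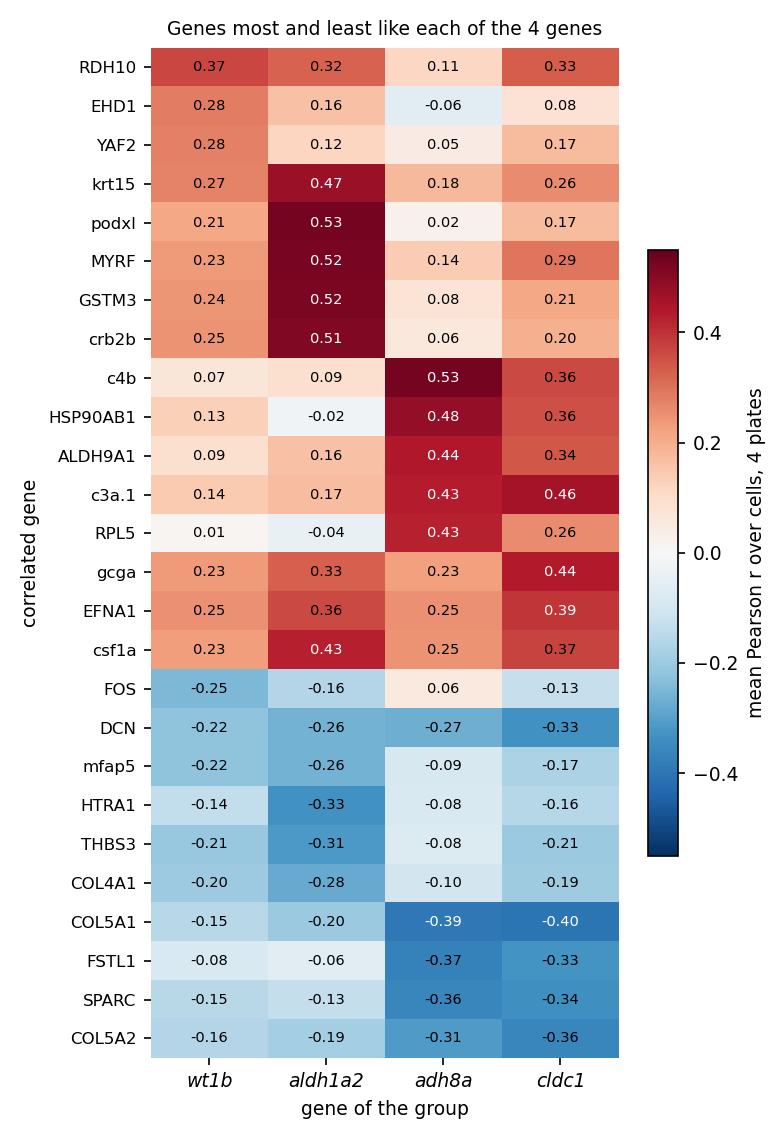
Mean Pearson r over cells (average of 4 plates, blue negative and red positive) of the 4 genes, in columns, with the genes most and least like each of them, in rows. The rows from *podxl* to *crb2b* are strong for *aldh1a2* (0.51 to 0.53) and near 0 to 0.14 for *adh8a*, while *c4b* is 0.53 for *adh8a* and 0.09 for *aldh1a2*.

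The gene lists were set against *aldh1a2* and *adh8a* in the same way. The claudin and tight junction list had been drawn up with *cldc1* on it, but its family was not certain and it was not counted. Of 13 genes of this list found in enough cells, 6 had an r over 0.1 with *aldh1a2* and none had one under -0.1. Among them, *f11r.1* was at 0.29 and TJP1 at 0.25. With *adh8a*, 0 of the 13 were over 0.1 and 2 were under -0.1. Of 26 other epicardial and mesothelial genes, 13 were over 0.1 with *aldh1a2*, among them the keratins *krt8* (0.42), *krt94* (0.41) and *krt4* (0.37), and 5 were under -0.1, among them *hapln1a* (-0.24) and *tcf21* (-0.12), while the keratin *krt18b* was at -0.08. With *adh8a*, 6 of the 26 were over 0.1 and 6 were under -0.1. Over all 5783 genes, 390 were over 0.1 with *aldh1a2* and 490 with *adh8a*, and 358 and 630 were under -0.1. Of 9 other alcohol and aldehyde dehydrogenase genes, 4 were over 0.1 with *adh8a*, ALDH9A1 at 0.44, *adh5* at 0.28, ALDH1L1 at 0.19 and ALDH6A1 at 0.13. The alcohol dehydrogenase gene *adh8b* was not among them, at -0.07 with *adh8a*. ALDH9A1 (0.16) was the only one over 0.1 with *aldh1a2*.

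Between the genotypes, a gene before *aldh1a2* and a gene after it in the retinoic acid pathway were called, in opposite directions. RDH10 (ENSDARG00000012369) was at 1181 and 1298 CPM in the *prrx1b*-/- plates, against 749 and 729 CPM in the wild-type plates. It rose by a log2 fold change of 0.76 (SE 0.14, edgeR, adjusted p = 0.0291). CYP26B1 (ENSDARG00000077121), which breaks down retinoic acid, was at 48.6 and 57.3 CPM in the *prrx1b*-/- plates, against 102 and 107.5 CPM in the wild-type plates. It fell, with a log2 fold change of -0.97 (SE 0.16, edgeR, adjusted p = 0.0208). Of the 22 genes of this list tested beside *aldh1a2*, these 2 were the ones called, beside 0.974% of all genes tested. The median log2 fold change was -0.18, against -0.01 over all genes tested. At an unadjusted p under 0.05 by edgeR, 2 of the 22 were higher and 4 lower in *prrx1b*-/-, beside 1574 of 11191 over all genes tested. The call of RDH10 was lost without *prrx1b*-/- plate 1 (adjusted p = 0.233, edgeR) or plate 2 (0.325), and that of CYP26B1 without *prrx1b*-/- plate 1 (0.204) or with cells thinned to 1000 transcripts (0.291). The second gene listed as RDH10 (ENSDARG00000058730) had a log2 fold change of -0.41 (SE 0.23, adjusted p = 0.453, edgeR).

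**Figure D4:**
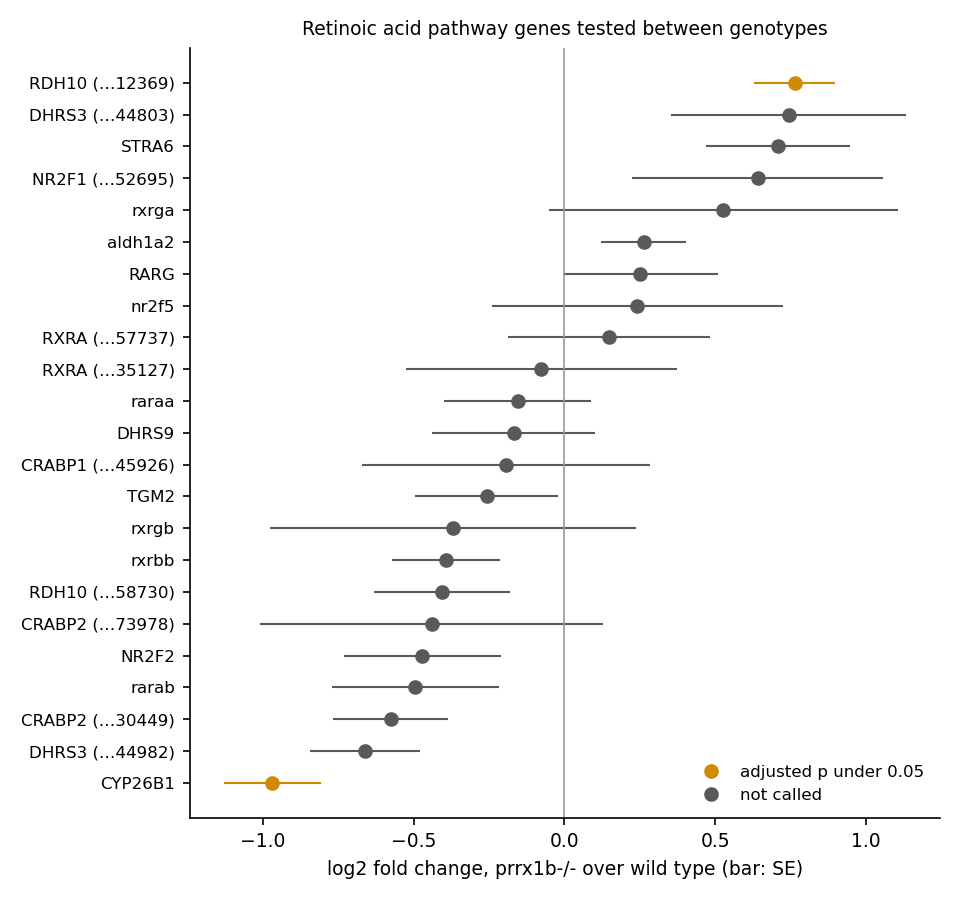
Log2 fold change of *prrx1b*-/- over wild type, with bars of 1 SE, for the 23 retinoic acid pathway genes tested, *aldh1a2* included; orange marks an adjusted p under 0.05 and digits in brackets the end of the gene ID where a symbol stands for more than 1 gene. RDH10 (0.76) is at the top and CYP26B1 (-0.97) at the bottom, with *aldh1a2* (0.26) in the upper part and not called.

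In the other lists, few or no genes were called. Of 16 other alcohol and aldehyde dehydrogenase genes tested, edgeR called 0, and 0 had an unadjusted p under 0.05, with log2 fold changes of 0.09 for ALDH9A1 and -0.13 for *adh5*. Of 22 claudin and tight junction genes tested, with *cldc1* not counted since its family was not certain, edgeR called 0. In this list 3 had an unadjusted p under 0.05 by edgeR, all higher in *prrx1b*-/-, beside 1574 of 11191 over all genes tested. Of 28 epicardial and mesothelial genes beside *wt1b*, 1 was called, beside 0.974% of all genes tested. At an unadjusted p under 0.05, 8 were higher and 1 lower, and the median log2 fold change was 0.17. The gene called was CDH11 (a cadherin of mesenchymal cells), which fell with a log2 fold change of -1.02 (SE 0.16, edgeR, adjusted p = 0.0168) and lost its call without *prrx1b*-/- plate 2 (adjusted p = 0.104, edgeR). Of the genes most like *cldc1*, *gcga* came near the threshold (log2 fold change 0.78, SE 0.17, edgeR, adjusted p = 0.0585). *c3a.1*, with the highest r, was at 0.60 (SE 0.16, edgeR, adjusted p = 0.119). EFNA1 and *csf1a* were at 0.14 and 0.17 (adjusted p = 0.813 and 0.784, edgeR).

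To see where in the cell population the 4 genes were used, the cells were grouped into 10 clusters by k-medoids without the 4 genes. All 4 had their highest level in the same cluster, of 188 cells, led by *ggt1a*, *si:dkeyp-1h4.9* and *si:dkey-238c7.13*. This also held with 8 clusters, whereas with 12 clusters *wt1b* peaked in a cluster of 123 cells and the other 3 in one of 100 cells, and with Ward clustering *wt1b* in 202 cells and the other 3 in 108. For *adh8a* the level there was 1154 ± 252 CPM (SD, n = 4 plates), against 597 ± 197 CPM in the cluster that came next (178 cells, led by MDK, AOC3 and ADM). The mean of *cldc1* over plates was 1429 ± 559 CPM in the 188 cells, with 668 ± 110.7 CPM for the 200 cells led by *elnb* and THBS4 and 648 ± 359 CPM for the 322 cells led by MYL7, a cardiomyocyte gene at 72.1 CPM there, and *apoeb* (SD, n = 4 plates). These gaps were larger than 1 SD of the higher cluster, but on wild-type plate 1 *cldc1* was at 710 CPM in the 188 cells and at 706 CPM in the 200 cells. The study used *si:dkeyp-1h4.9* as a marker of a fibroblast cluster, and reported the highest *wt1b* and *aldh1a2* in another cluster, its injury epicardium. Whether either matches the cluster of 188 cells was not tested.

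For *wt1b* and *aldh1a2* the same cluster stood out less. *wt1b* averaged 359 ± 44.3 CPM over the plates there, whereas its means in 4 further clusters (322, 200, 143 and 132 cells) ran from 260 to 325 CPM. *aldh1a2* averaged 937 ± 285 CPM in the 188 cells, 776 ± 132 CPM in the 200 cells and 710 ± 174 CPM in the 322 cells (SD, n = 4 plates). For both genes the gap to the 200 cells was within the SD of the 188 cells. For *wt1b* the gap to the 322 cells (260 ± 37.3 CPM) was larger, and the 188 cells were higher on all 4 plates. The ratio of the highest to the lowest cluster was 5.48 for *wt1b*, 10.3 for *aldh1a2*, 16.1 for *cldc1* and 49.2 for *adh8a*.

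*aldh1a2* and *adh8a* were furthest apart in 2 clusters. In the cluster of 71 cells with COL11A1 and CILP2 among its 3 leading genes, which are genes of fibrillar collagen and cartilage matrix, *aldh1a2* was at 599 CPM and *adh8a* at 21.4 CPM, its lowest level, while *wt1b* was at 208 CPM and *cldc1* at 167 CPM. These cells were the deepest, with a median of 17913 transcripts. The 178 cells led by MDK, AOC3 and ADM had 607 CPM of *adh8a* and 122 CPM of *aldh1a2*, which was found in 21.9% of cells (median 4115 transcripts), with *cldc1* at 301 CPM and *wt1b* at 140 CPM. The lowest levels of *wt1b* (62.9 CPM), *aldh1a2* (81.5 CPM) and *cldc1* (74.1 CPM) were in the cluster of 64 cells led by FOS, *egr2a* and IRF8, where they were found in 17.2%, 21.9% and 17.2% of cells (median 4301 transcripts). The 86 cells led by *hsp70l*, HSPB1 and HSPH1, all heat shock genes, had 136 CPM of *aldh1a2*, 85.5 CPM of *cldc1* and 82.8 CPM of *wt1b*. *adh8a* was at 290 CPM in the 64 cells and at 209 CPM in the 86 cells. In the 132 cells led by HBE1, *aldh1a2* was at 534 CPM and *adh8a* at 134 CPM. Of *tcf21*, *tbx18*, HSPH1 and RTCA, genes used as remote epicardium markers, 3 had a fold over 1.5 against the other clusters in the 178 cells. All 4 did in the 86 cells and in the 64 cells, and none of them did in any other cluster. *wt1b* and *aldh1a2* had their lowest levels in these same clusters.

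**Figure D5:**
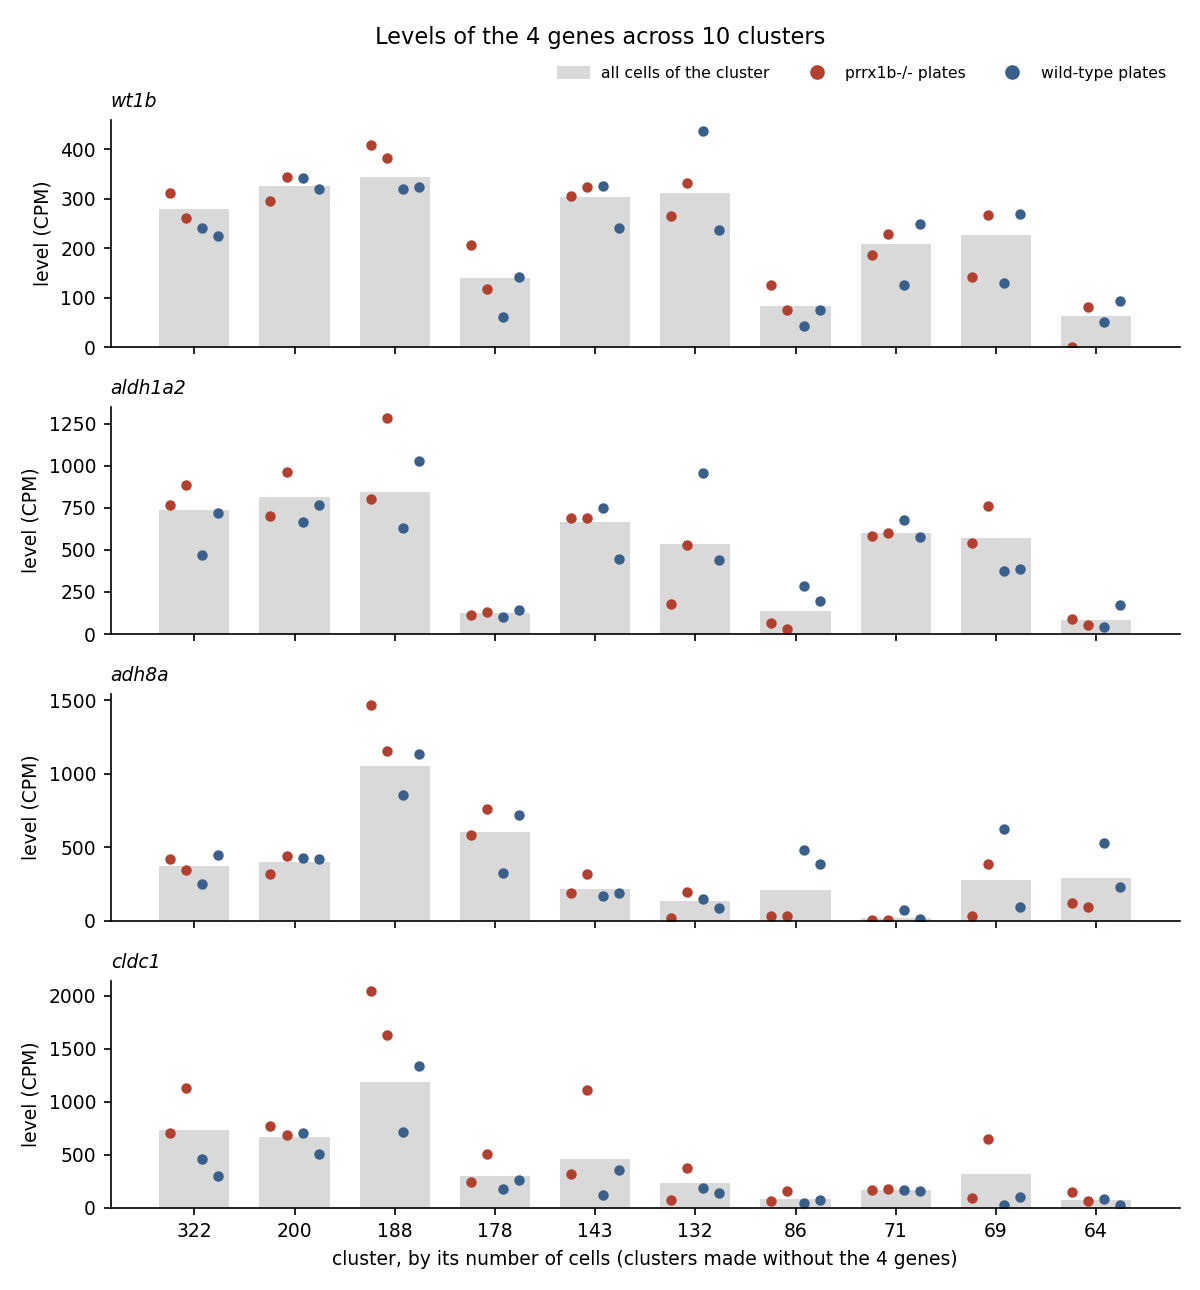
Level in CPM of each gene in 10 clusters made without the 4 genes and named by their number of cells; grey bars are all cells of a cluster, and points are plates, *prrx1b*-/- in red and wild type in blue. *adh8a* and *cldc1* peak in the cluster of 188 cells (1054 and 1189 CPM over all its cells), *aldh1a2* is at 122 CPM in the cluster of 178 cells, and *adh8a* at 21.4 CPM in that of 71 cells.

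The cluster with the highest *cldc1* held 26 and 28 *prrx1b*-/- cells and 89 and 45 wild-type cells, so that it was smaller on the mutant plates, where *cldc1* was higher. With each plate weighted to the same cluster makeup, *cldc1* was at 617 and 812 CPM in *prrx1b*-/- and 358 and 407 CPM in wild type. This is a log2 difference of 0.90, and it was 0.91 with 8 clusters, 1.33 with 12 and 0.89 with Ward clustering. The edgeR log2 fold change over all cells, a different measure, was 0.81. Within those 188 cells, the *prrx1b*-/- plates had 2038 and 1629 CPM of *cldc1* and the wild-type plates 710 and 1337 CPM. Both mutant plates lay above both wild-type plates for *cldc1* in 2 of the 10 clusters, and below in 0. With 8 clusters they lay above in 5 of 8, with 12 clusters in 5 of the 10 with enough cells on each plate, and with Ward clustering in 5 of 10. Over whole plates, 22.1% of all genes tested had this order, and the share of genes with it within clusters was not computed. At equal makeup the log2 differences of the others were 0.17 for *wt1b*, 0.18 for *aldh1a2* and 0.08 for *adh8a*. With 12 clusters they were 0.30 for *wt1b* and 0.50 for *aldh1a2*, and with Ward clustering that of *adh8a* turned to -0.12.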

How the data were processed

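The authors made CEL-Seq2 libraries from 4 SORT-seq plates and mapped the reads to Zv9, with BWA 0.6.2 named in the submitters' processing notes. Per gene and well they deposited expected counts: distinct molecular barcodes, adjusted for the chance that a barcode was drawn more than once and not scaled for depth. All values above 0 matched this correction for 6 random bases within 0.006, whereas the methods name 4, and 72 values exceed what 4 bases allow. All plates use the same 384 well barcodes. Wells with at least 1000 transcripts, spike-ins aside, were taken as cells, which gave slightly more cells than the study states. Single cells were sorted, so doublets were not looked for. The mutation itself cannot be seen in transcript counts, so these do not check the genotype labels.

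Estimated counts were summed per plate, rounded, filtered with filterByExpr, scaled by TMM and tested with the quasi-likelihood test of edgeR 4.0.16 (R 4.3.3) over all genes, with Benjamini-Hochberg adjustment at 0.05. The fit used no replicate block. Shares were thinned by the hypergeometric expectation and compared by exact permutation over the 4 plates. Residuals used a dispersion parameter of 100. Clusters used 1342 genes and 1 − Pearson correlation. Exact intervals used scipy 1.17.1, and 1 alternative DESeq2 1.42.0. The genotype fit and the correlations had a self-test, that of the correlations on simulated counts, and the other steps had none. Of 20880 genes found in cells, 16179 had a symbol. Some symbols stand for more than 1 gene. Gene lists were matched by symbol, with the paralogue letter dropped where the table holds none. The named genes are the 4 genes, up to 4 of each list (called ones, else those with most transcripts), the 5 highest and 3 lowest correlated genes with 1 sign on all plates, and 3 leading genes per cluster. *f11r.1*, *krt94*, *krt4*, *krt18b*, *hapln1a*, ALDH1L1, *adh8b* and the second RDH10 gene were named after their values were seen. The genes, lists and rules were chosen with earlier results of these data known. Alternatives comprised DESeq2, no filter, a replicate block, other cell minimums, thinning, fewer genes, each plate left out and other clusterings. The values at equal cluster makeup were added after seeing the data. No sequences and no coordinates were used here.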

Additional observations from a re-analysis of the deposited data

Results flagged for a closer look

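In some clusters the 2 *prrx1b*-/- plates lay above both wild-type plates and in others below both, for the same gene. The differences between clusters were not tested, and several rest on few cells. The cluster of 86 cells held 22 and 20 *prrx1b*-/- cells and 22 and 22 wild-type cells, with a median of 3999 transcripts. Over whole plates, 22.1% of all genes tested had both mutant plates above and 22.9% had both below. The shares of genes with these orders within clusters were not computed. For *aldh1a2*, the log2 difference of *prrx1b*-/- over wild type was 0.47 in the cluster of 322 cells and 0.78 in that of 69 cells (led by MYOC, *mgp* and *hapln1a*), and -2.29 in that of 86 cells (heat shock genes), where it was at 66.5 and 32.3 CPM in *prrx1b*-/- and 288 and 194 CPM in wild type. For *adh8a*, it was 0.40 in the cluster of 188 cells and 0.51 in that of 143 cells (led by ACTC1 and *acta2*). It was -3.73 in the cluster of 86 cells, at 33.2 and 32.3 CPM in *prrx1b*-/- and 479 and 389 CPM in wild type. It was also -2.53 in the cluster of 71 cells, where *adh8a* had its lowest level. The plates there were at 5.71 and 9.66 CPM in *prrx1b*-/- and 73.2 and 15.8 CPM in wild type, the 73.2 CPM from 12 cells. In the cluster of 64 cells it was -1.82, at 119 and 95.8 CPM in *prrx1b*-/- (7 and 16 cells) and 529 and 232 CPM in wild type (23 and 18 cells).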

How the results depend on the processing

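Without either mutant plate in turn, *cldc1* lost its call (log2 fold change 0.65 to 0.98 over the 4 leave-one-out fits), and it kept it in the other settings. *adh8a* turned negative with cells thinned to 1000 transcripts (-0.0071) and without wild-type plate 2 (-0.075), and ranged from -0.08 to 0.12 with a plate left out. *aldh1a2* and *wt1b* were called in none of the 12 fits. *gcga* was called without the filter, with the block, after thinning, with DESeq2 and without either wild-type plate. The count of genes higher in *prrx1b*-/- was 269 without the filter, 234 with the replicate block, 100 with DESeq2 and 29 to 330 with a plate left out. The count lower was 254 without the filter, 241 with the block and 70 to 295 with a plate left out. The plate numbers are only numbers: over 11191 genes, deviations of same-numbered plates correlated at 0.04, and the replicate block changed no call among the 4 genes. At 3000 transcripts the difference in share of *aldh1a2* was -2.49 percentage points. In cells with at least 5000 transcripts odds ratios were 1.65 for *wt1b* and *adh8a*, 2.18 for *wt1b* and *cldc1*, 1.61 for *aldh1a2* and *adh8a*, and 2.58 for *aldh1a2* and *cldc1*. After thinning, odds ratios were 2.00 for *wt1b* and *aldh1a2*, 1.33 for *wt1b* and *adh8a*, 1.66 for *wt1b* and *cldc1*, 1.46 for *aldh1a2* and *adh8a*, and 2.16 for *aldh1a2* and *cldc1*. On log2 values scaled to 10000 per cell, mean r was 0.15 for *wt1b* and *adh8a*, 0.15 for *aldh1a2* and *adh8a*, 0.32 for *aldh1a2* and *cldc1*, and 0.51 for *adh8a* and *cldc1*. At equal cluster makeup, 12 clusters gave log2 differences of 0.30 for *wt1b*, 0.50 for *aldh1a2* and 1.33 for *cldc1*, and Ward clustering gave 0.20 for *wt1b* and -0.12 for *adh8a*. The causes were not tested.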
